A study of Mus musculus with 6 samples.

Results

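MHC class I presentation genes encode the molecules that carry peptides from inside a cell to its surface, and the factors that load and regulate them. The rule named 9 genes, B2m, H2-Q10, Irf1, H2-D1, H2-T23, Tap1, Tap2, Tapbp and Nlrc5, and 5 of them had a named probe. B2m, H2-Q10, H2-T23, Tap2 and Irf1 were represented by 1 probe each, among 12323 named genes and 41006 probes. The other 4 genes had no named probe and are not analysed here.

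The 3 kinds of cultured mouse cell were hybridised on 6 arrays, with 2 arrays each that the series' design text calls biological replicates. MAPC were multipotent adult progenitor cells grown from bone marrow in 5% oxygen, 2% serum, epidermal and platelet-derived growth factors and leukemia inhibitory factor. They were depleted of CD45+ and Ter119+ cells after 4 weeks, replated at 10 cells per well and used beyond 80 population doublings. Their titles read mMAPC-1 while their descriptions name clone 2 with high Oct4, both arrays carry the same clone name, and no strain is given. ESC were C57BL/6 embryonic stem cells kept in 15% serum with leukemia inhibitory factor on irradiated embryonic fibroblasts and plated feeder-free before RNA was taken. NS were C57BL/6 neurospheres from forebrains of E11.5 embryos, grown with basic fibroblast and epidermal growth factors at 20 ng/ml. Cell type, culture medium and, for MAPC, strain cannot be told apart. Each sample was labelled with Cy3 and set against a common Cy5-labelled RNA pool of 11 mouse cell lines, with 1 dye orientation throughout. A level below is a log2 ratio of sample to this pool, so it ranks cell types for 1 gene and not genes against each other.

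On the surface of most nucleated cells a class I heavy chain pairs with beta-2 microglobulin, the product of B2m, and holds a short peptide. Proteasomes cut the peptides, the transporter made of Tap1 and Tap2 moves them into the endoplasmic reticulum, and chaperones help to load them. Interferons and NF-kB raise the transcription of these genes, with Irf1 and Nlrc5 among the factors that act on their promoters. Embryonic stem cells are known for low class I levels at the surface.

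The probes decide what was measured, and 30 of the 60 bases of each are printed to show this. The capitals in H2-Q10 mark the 21 bases, positions 1 to 21, that it shares with another probe of the array, filed under NM_019909.1 and left unnamed here. The B2m, H2-T23, Tap2 and Irf1 probes shared no run of 16 bases with any other probe. Class I heavy chains are close relatives, and cross-hybridisation with transcripts that have no probe was not tested.
B2m: gcagttactcatctttggtctatcacaaca
H2-Q10: TCACTTCCACACTGAGAATAAgaatctgga
H2-T23: gaatgacatagcctcacagatctctaagca
Tap2: ctgtcaaggacaatattgcctatggcctga
Irf1: gacaggagtcatcttctagctttttaaaag

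In the mouse reference GRCm38.p6, B2m lies on chromosome 2 at chr2:122147687-122153082 and Irf1 on chromosome 11 at chr11:53770014-53778374. The other 3 genes lie in the MHC region of chromosome 17, with Tap2 at chr17:34204479-34216321, H2-Q10 at chr17:35470089-35474563 and H2-T23 at chr17:36029977-36032701. RefSeq's table held promoters for B2m, Irf1, H2-T23 and H2-Q10. The 250 bases before the start are printed because these genes were low together in MAPC, and capitals mark the motifs found on either strand. The motifs searched were the core of the interferon-stimulated response element (GAAA, any 2 bases, GAAA, written ISRE below), GGGNNTTCC for NF-kB, TTCNNNGAA, the core of the gamma-activated site, TGACG, part of cAMP-responsive and class I X2 elements, and CCAAT, the Y box.
B2m, chr2:122147437-122147686, plus strand: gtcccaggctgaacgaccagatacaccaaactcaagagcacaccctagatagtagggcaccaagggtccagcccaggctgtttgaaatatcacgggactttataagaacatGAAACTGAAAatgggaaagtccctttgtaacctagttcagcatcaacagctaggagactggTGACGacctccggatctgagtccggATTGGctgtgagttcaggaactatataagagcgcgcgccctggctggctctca
Irf1, chr11:53769764-53770013, plus strand: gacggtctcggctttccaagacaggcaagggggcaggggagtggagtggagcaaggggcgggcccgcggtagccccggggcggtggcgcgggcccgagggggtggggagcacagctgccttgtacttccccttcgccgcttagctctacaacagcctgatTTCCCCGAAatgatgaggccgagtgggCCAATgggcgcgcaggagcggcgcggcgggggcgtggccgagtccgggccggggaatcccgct
H2-T23, chr17:36032702-36032951, minus strand: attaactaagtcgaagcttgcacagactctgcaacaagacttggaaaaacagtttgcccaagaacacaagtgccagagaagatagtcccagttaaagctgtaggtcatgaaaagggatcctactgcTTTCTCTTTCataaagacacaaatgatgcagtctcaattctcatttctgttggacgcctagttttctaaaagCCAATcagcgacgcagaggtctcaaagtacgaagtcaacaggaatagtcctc
H2-Q10, chr17:35469839-35470088, plus strand: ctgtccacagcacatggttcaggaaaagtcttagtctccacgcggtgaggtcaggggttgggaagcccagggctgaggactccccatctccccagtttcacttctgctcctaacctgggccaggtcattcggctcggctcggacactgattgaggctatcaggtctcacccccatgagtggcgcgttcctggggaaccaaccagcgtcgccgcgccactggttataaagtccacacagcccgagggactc

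The B2m window held 1 match to ISRE, 1 to TGACG and 1 to CCAAT. Irf1 held 1 match to TTCNNNGAA, at positions -90 to -82, and 1 to CCAAT. A second Irf1 window in the table held none of the 5 motifs. H2-T23 held 1 match to ISRE and 1 to CCAAT. The H2-Q10 window matched none of the 5, while that of its relative H2-D1 held 1 match to GGGNNTTCC, 1 to TGACG and 2 to CCAAT. Among all 32851 promoters of the table, 3.0% held ISRE, 5.0% GGGNNTTCC, 7.0% TTCNNNGAA, 17.8% TGACG and 33.8% CCAAT, so the last 2 are common. No match overlapped another in the windows printed. A match is a description of letters and not a binding site.

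All 5 measured genes had their lowest level in MAPC. MAPC minus ESC was -1.59 for B2m, -2.05 for H2-Q10, -2.02 for Irf1, -0.46 for H2-T23 and -0.41 for Tap2 on the log2 scale. Against NS all 5 were lower in MAPC as well, at -1.46 for B2m, -0.99 for H2-T23, -0.86 for H2-Q10, -0.65 for Irf1 and -0.46 for Tap2. ESC and NS had no common order, since H2-Q10 and Irf1 were higher in ESC, H2-T23 was higher in NS, and B2m and Tap2 did not pass the test. Calls were adjusted p-values under 0.05 from limma, Benjamini-Hochberg adjusted over all probes tested. The background was high. In MAPC against ESC 38.5% of 39387 probes were called, 16.3% as higher and 22.2% as lower, and in MAPC against NS 44.2% of 39386, 21.8% as higher and 22.4% as lower. For ESC against NS the share was 38.7% of 39395, 20.4% as higher and 18.3% as lower. The MAPC values overlapped those of neither ESC nor NS for any of the 5 genes. Of 38999 probes measured on every array, the arrays of the groups did not overlap for 68.5% in MAPC against ESC, 72.5% in MAPC against NS and 65.4% in ESC against NS. These comparisons share arrays, so their counts are not independent of each other.

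**Figure D1:**
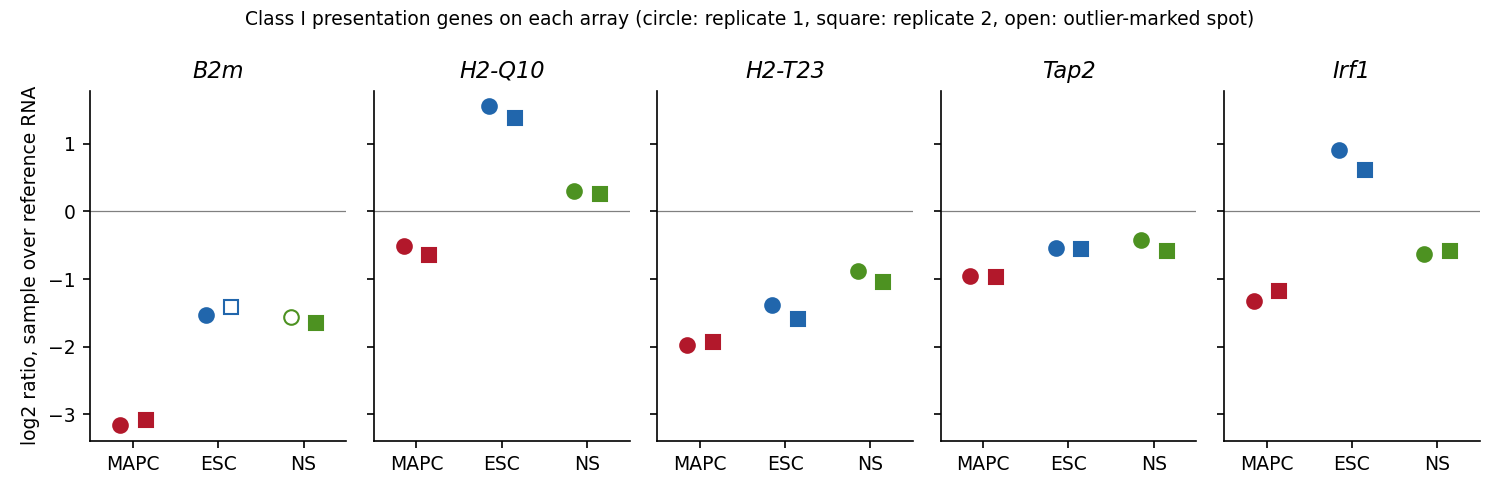
Log2 ratio of sample (Cy3) to reference RNA (Cy5) for 5 class I presentation genes on each of 6 arrays, with MAPC, ESC and NS from left to right and open symbols for spots marked as outliers. In every panel both MAPC points lie below the ESC and NS points.

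B2m encodes the light chain that all class I molecules share. Its log2 ratio was -3.15 and -3.09 on the MAPC arrays, -1.53 on ESC replicate 1 and -1.66 on NS replicate 2. The scanner software marked the spot as an outlier on ESC replicate 2 and NS replicate 1, where the values left out were -1.41 and -1.56. Both MAPC arrays lay far below every ESC and NS value, marked or not. The difference was -1.59 ± 0.0759 for MAPC minus ESC (SE, adjusted p = 2.54e-05 by limma) and -1.46 ± 0.0759 for MAPC minus NS (adjusted p = 2.65e-05 by limma), each with 2 MAPC arrays against 1. For this probe the spread came from the MAPC pair alone, 1 residual degree of freedom, moderated by that of all probes, and the lone ESC and NS spots are assumed to vary alike. With the marked spots kept the differences were -1.65 and -1.51.

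The background of the spot was also marked on ESC replicate 2 and on NS replicate 2, the array that gave the NS value. In background-subtracted Cy3 intensity, unscaled between arrays, B2m stood at 596 and 507 in MAPC, 2153 and 2428 in ESC, and 1826 and 2056 in NS. MAPC had the lowest values, and both were above the brightest negative-control spot of their array. The ESC minus NS difference of 0.13 ± 0.0877 (95% CI -0.09 to 0.35, adjusted p = 0.348 by limma) did not pass, and sets 1 array against 1.

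H2-Q10 encodes a class I molecule that liver is known to secrete. Its log2 ratio was -0.51 and -0.64 in MAPC, 1.56 and 1.39 in ESC, and 0.30 and 0.26 in NS. The 3 cell types did not overlap, with ESC highest and MAPC lowest. The differences were -2.05 ± 0.0753 for MAPC minus ESC (adjusted p = 5.04e-07 by limma), -0.86 for MAPC minus NS (adjusted p = 4.08e-05) and 1.19 for ESC minus NS (adjusted p = 7.87e-06).

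The reference signal of this probe was less even than that of the other members. It was 304 and 411 on the MAPC arrays, 524 and 614 on the ESC arrays, and 320 and 360 on the NS arrays, so the highest was 2.02 times the lowest. For the other 4 genes that ratio was between 1.17 and 1.39. The Cy3 signal alone, quantile normalised, gave differences of -2.29 for MAPC minus ESC and 1.66 for ESC minus NS, and -0.63 for MAPC minus NS. All 3 kept their sign and their call.

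The probe that shares 21 bases with H2-Q10 had Cy3 intensities of 1137 and 979 in MAPC, 3280 and 3316 in ESC, and 3775 and 3874 in NS. Its log2 ratios were -4.05 and -4.04 in MAPC, -2.50 and -2.49 in ESC, and -2.12 and -2.19 in NS. MAPC was lowest for both probes, but ESC minus NS was -0.34 here (adjusted p = 0.0013 by limma), the opposite order to H2-Q10. Its part in the H2-Q10 signal was not tested.

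H2-T23 encodes the heavy chain of Qa-1, which displays signal peptides of other class I chains to natural killer cells. Its log2 ratio was -1.98 and -1.94 in MAPC, -1.39 and -1.60 in ESC, and -0.88 and -1.05 in NS. Levels were lowest in MAPC and highest in NS with no overlap, the only one of the 5 with both ESC values between MAPC and NS. MAPC minus ESC was -0.46 ± 0.0861 (adjusted p = 0.00341 by limma), MAPC minus NS was -0.99 (adjusted p = 3.76e-05) and ESC minus NS was -0.53 (adjusted p = 0.00163).

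Tap2 encodes a subunit of the peptide transporter. Its log2 ratio was -0.96 and -0.97 in MAPC, -0.54 and -0.55 in ESC, and -0.43 and -0.59 in NS. MAPC lay below the others, while the ESC values fell inside the NS range. MAPC minus ESC was -0.41 ± 0.0650 (adjusted p = 0.00142 by limma), MAPC minus NS was -0.46 (adjusted p = 0.000685), and ESC minus NS was -0.04 (95% CI -0.19 to 0.11, adjusted p = 0.699).

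Irf1 encodes a transcription factor that interferon-gamma induces and that activates class I promoters. Its log2 ratio was -1.33 and -1.18 in MAPC, 0.91 and 0.61 in ESC, and -0.64 and -0.58 in NS. ESC stood well apart from the other 2 cell types, and MAPC lay below NS with no overlap. MAPC minus ESC was -2.02 ± 0.102 (adjusted p = 2.57e-06 by limma), MAPC minus NS was -0.65 (adjusted p = 0.00117) and ESC minus NS was 1.37 (adjusted p = 1.9e-05).

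**Figure D2:**
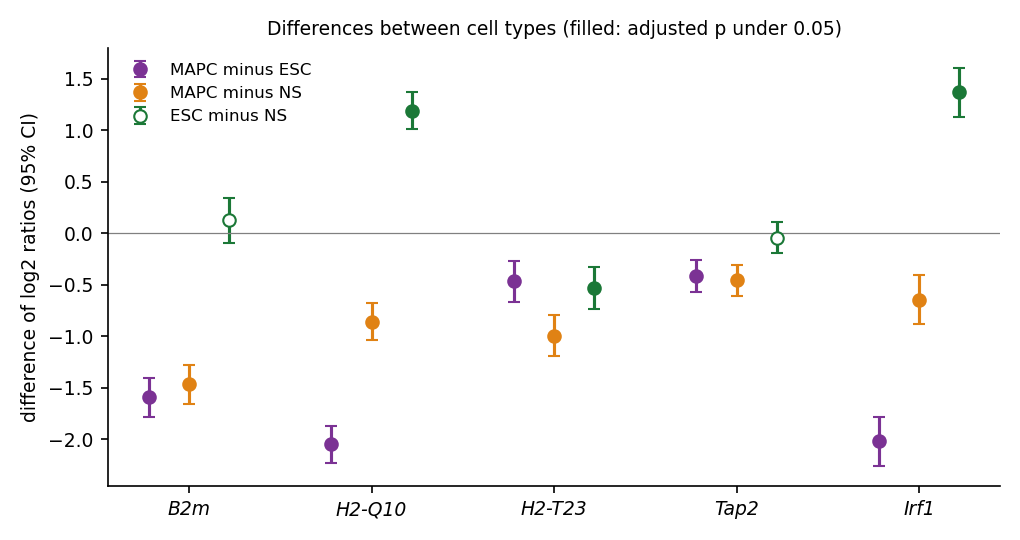
Differences of log2 ratios between cell types with 95% confidence intervals for the 5 genes, filled where the adjusted p was under 0.05. MAPC minus ESC and MAPC minus NS lie below 0 for all 5, and ESC minus NS crosses 0 for B2m and Tap2.

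H2-T23, Tap2 and Irf1 were dim in MAPC. In background-subtracted Cy3 intensity Irf1 was 15.3 and 24.3 in MAPC, 271 and 241 in ESC, and 67.7 and 85.1 in NS. H2-T23 was 19.1 and 22.4 in MAPC, 56.7 and 51.4 in ESC, and 106 and 94.97 in NS. Tap2 was 14.2 and 16.5 in MAPC, 33.7 and 41.1 in ESC, and 54.5 and 40.0 in NS. The brightest of the negative-control spots reached 39.9 and 165 on the MAPC arrays, above all of these MAPC values, although each exceeded at least 99.4% of the controls. On ESC replicate 2, where it reached 83.3, H2-T23 and Tap2 also lay below it, and on NS replicate 2, where it reached 69.1, Tap2 did. H2-Q10, at 62.6 and 68.9 in MAPC, 684 and 652 in ESC, and 169 and 168 in NS, was below the brightest control only on MAPC replicate 2. B2m was above it on all 6 arrays.

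All 5 probes were marked as well above background on every array, and none was saturated. Depending on the array, between 91.9% and 99.6% of all probe spots carried that background mark, so it sets these genes little apart. The unscaled Cy3 means were lower in MAPC than in ESC by a factor of 12.9 for Irf1, 10.2 for H2-Q10, 4.16 for B2m, 2.60 for H2-T23 and 2.44 for Tap2. The corresponding factors from the log2 ratios were 4.05, 4.14, 3.01, 1.38 and 1.33. With no background subtraction, Tap2 and H2-T23 were -0.08 for MAPC minus ESC and lost their calls, and Irf1 was -0.14 for MAPC minus NS (adjusted p = 0.111 by limma). With an offset of 0, chosen after seeing the data, the 3 values were -1.23, -1.21 and -1.53, while MAPC minus ESC was -1.70 for B2m, -2.37 for H2-Q10 and -3.24 for Irf1. What made up the rest of the gap to the unscaled factors was not tested.

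**Figure D3:**
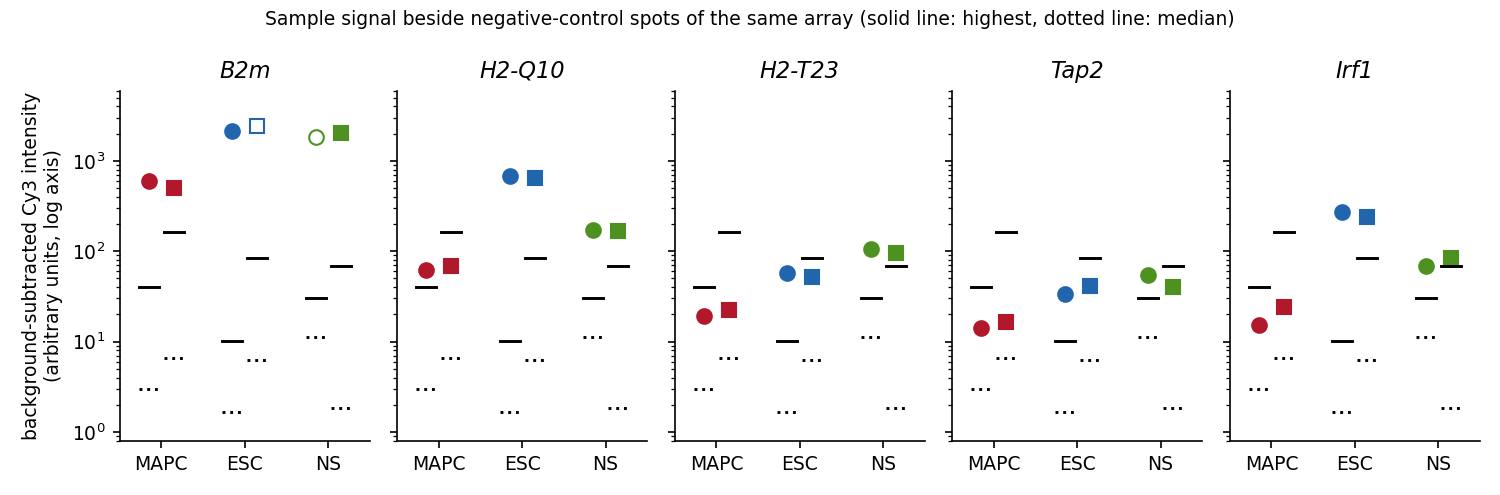
Background-subtracted Cy3 intensity of the 5 genes on each array on a log axis, with MAPC, ESC and NS from left to right, solid lines for the highest and dotted lines for the median negative-control spot of that array. MAPC values of H2-T23, Tap2 and Irf1 lie under the solid lines, as do H2-T23 and Tap2 on ESC replicate 2 and Tap2 on NS replicate 2, and B2m lies above them throughout.

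The file headers name 2 weekdays of image analysis, each with 1 array per cell type, called day 1 and day 2 here. Replicate 2 of each type falls on day 1 and replicate 1 on day 2. Only the weekday was used, so a shared date and the order of the days are not known. Within days, day 1 given before day 2, MAPC minus ESC was -1.79 and -2.24 for Irf1, -2.03 and -2.07 for H2-Q10, -0.34 and -0.59 for H2-T23, and -0.41 and -0.42 for Tap2. For B2m, with marked spots kept, it was -1.68 and -1.63. MAPC minus NS within days was -1.43 and -1.60 for B2m, marked spots kept, -0.90 and -0.81 for H2-Q10, -0.60 and -0.70 for Irf1, -0.89 and -1.10 for H2-T23, and -0.38 and -0.53 for Tap2. Every one of these within-day values was below 0. Their sign follows from the lack of overlap given above, on the same arrays, and adds no support to it.

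Other class I and class I-like genes that were called were mostly lower in MAPC than in ESC and in NS. Of 15 other heavy chains and class I-like genes measured, 1 was higher and 8 were lower in MAPC than in ESC, with a median difference of -0.28. Over all 12109 named genes tested, 50.4% were called, 21.1% as higher and 29.3% as lower, and the median was -0.01. H2-T22, a class I molecule that gamma-delta T cells recognise and that binds no peptide, had log2 ratios of -4.04 and -4.03 in MAPC, -0.53 and -0.54 in ESC, and -0.54 and -0.54 in NS. MAPC thus stood far below both other cell types, at -3.50 against ESC (adjusted p = 1.46e-08 by limma) and -3.49 against NS (adjusted p = 6.7e-09), while ESC and NS differed by 0.01.

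H2-Bl, a nonclassical heavy chain gene, was -0.25 and -0.08 in MAPC, 1.86 and 1.78 in ESC, and -0.22 and -0.33 in NS. It was higher in ESC than in both others, with -1.98 for MAPC minus ESC and 2.09 for ESC minus NS. Cd1d1, which presents lipids, was -1.02 and -0.98 in MAPC, 0.02 and -0.05 in ESC, and 2.25 and 2.13 in NS. It was lowest in MAPC, at a difference of -0.98 from ESC and -3.19 from NS. Procr, the endothelial protein C receptor with a class I-like fold, went the other way, at 1.94 and 1.56 in MAPC, -0.44 and -0.40 in ESC, and -3.004 and -3.04 in NS. Its difference was 2.17 for MAPC minus ESC and 4.77 for MAPC minus NS. Procr was the 1 gene of the list called higher in MAPC in each of these comparisons. Azgp1 at 0.09 and H2-M9 at -0.01 did not pass the test for MAPC minus ESC. Against NS, 1 of the 15 was higher and 6 were lower in MAPC, where 55.1% of named genes were called, 28.8% as higher and 26.3% as lower.

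Genes that make and load peptides were called in both directions. Of 16 measured, 4 were higher and 10 were lower in MAPC than in ESC, with a median difference of -0.46. The share called was 87.5%, beside 50.4% of named genes. Psmb8, an inducible subunit of the immunoproteasome, had log2 ratios of -4.06 and -4.18 in MAPC, -2.91 and -2.95 in ESC, and -3.53 and -3.66 in NS. Psme2, a subunit of the proteasome activator PA28, was -3.04 and -2.88 in MAPC, -1.78 and -1.78 in ESC, and -1.83 and -1.78 in NS. Both were lowest in MAPC, at differences of -1.19 and -1.18 from ESC (adjusted p = 5.51e-06 and 4.87e-06 by limma).

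The endoplasmic reticulum chaperones Calr and Hspa5 were higher in MAPC. Calr, part of the peptide-loading complex, was 1.87 and 1.88 in MAPC, 0.53 and 0.68 in ESC, and 0.18 and 0.06 in NS. MAPC exceeded ESC by 1.27 for Calr and 1.11 for Hspa5, and NS by 1.75 and 1.78. Pdia3 at 0.24 and Thop1 at 0.08 did not pass the test for MAPC minus ESC. The median of the list against NS was -0.21, and 8 of the 16 fell while 5 rose in MAPC, or 81.2% beside 55.1% of named genes. In ESC against NS, 8 were higher and 2 lower, or 62.5% beside 51.1%.

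A further 4 genes of this list, chosen after their values were seen, were lower in MAPC. They are among the 10 lower than in ESC already counted, beside 4 that were higher, and add no support to that count. Psmb9 and Psmb10, further immunoproteasome subunits, fell by 0.64 and 0.57 against ESC. Psme1, the partner of Psme2, fell by 0.55, and Tapbpl, a relative of tapasin, fell by 0.95. Against NS the 4 genes fell by 0.33, 0.36, 0.38 and 0.31.

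Interferon and NF-kB signalling genes moved in both directions. Of 27 measured, 10 were higher and 9 lower in MAPC than in ESC, and the median was -0.12. The share called was 70.4%, beside 50.4% of named genes. Tnfrsf1a, a receptor of tumour necrosis factor, was 1.76 higher in MAPC, and the NF-kB subunits Rela and Rel were 1.06 and 0.88 higher (adjusted p = 6.83e-07, 8.44e-06 and 0.00219 by limma). Jak1 at -0.03 and Nfkb1 at -0.20 did not pass. Against NS, 7 were higher and 7 lower, or 51.9% called, under the 55.1% of named genes. They included Socs3, a feedback inhibitor of cytokine signalling, at 3.58, and Irf2, a relative of Irf1, at -1.47.

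Interferon-stimulated genes were lower in MAPC than in ESC more often than higher. Of 30 measured, 18 were lower and 2 higher, and their median difference was -0.45. The share called was 66.7%, beside 50.4% of named genes. Bst2, which tethers budding virus to the cell surface, had log2 ratios of -3.56 and -3.68 in MAPC, 0.58 and 0.69 in ESC, and -0.40 and -0.52 in NS. Its difference was -4.25 for MAPC minus ESC (adjusted p = 2.25e-08 by limma) and -3.16 for MAPC minus NS. The antiviral membrane proteins Ifitm1 and Ifitm2 fell by 2.96 and 2.69 against ESC. Isg20, a ribonuclease, was 3.398 higher in MAPC than in ESC and 3.64 higher than in NS. Eif2ak2 at -0.13 and Oas1g at -0.11 did not pass.

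Against NS the balance was narrower, with 18 of the interferon-stimulated genes not past the test, 10 lower and 2 higher in MAPC. The share called was 40%, under the 55.1% of named genes, and the median of the list was -0.06. In ESC against NS, 15 rose and 2 fell at a median of 0.29, where 51.1% of named genes were called, 29.4% as higher and 21.6% as lower. Of the members, Irf1 and H2-Q10 were also higher in ESC than in NS, whereas B2m and Tap2 were not past the test. H2-T23 went the other way, at -0.53 (adjusted p = 0.00163 by limma).

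**Figure D4:**
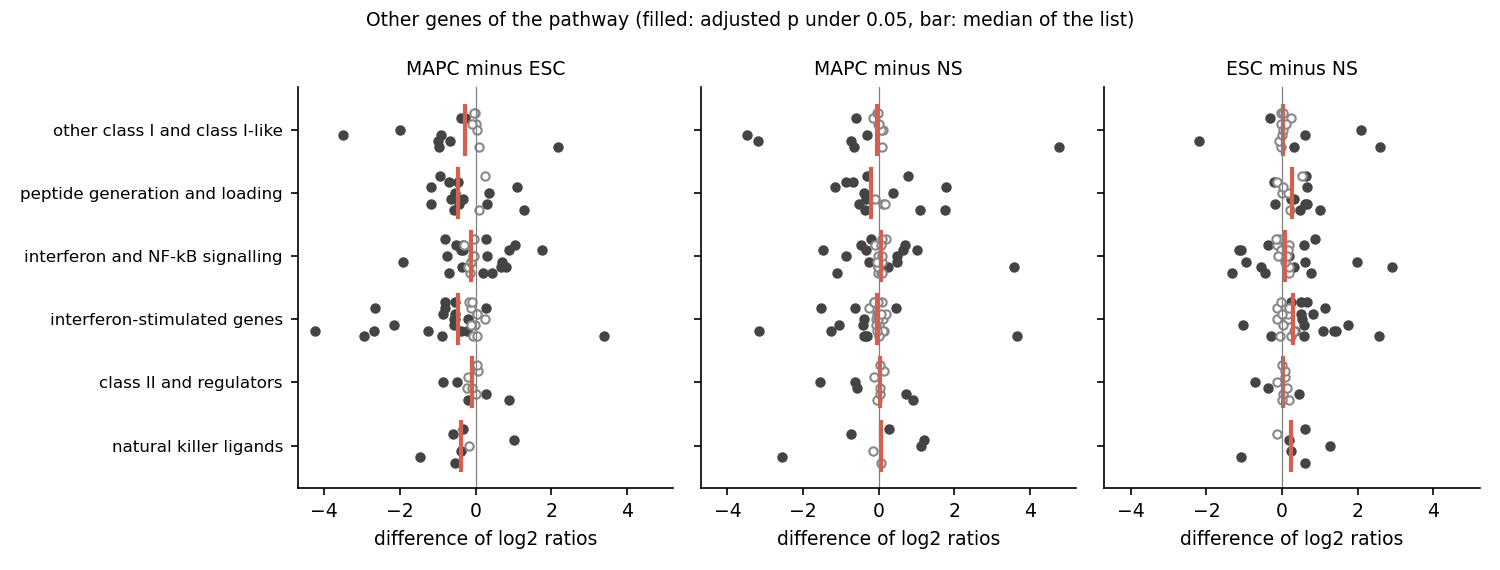
Differences of log2 ratios for the genes of 6 lists related to class I presentation in the 3 comparisons, each point a gene, filled where the adjusted p was under 0.05, with a bar at the median of the list. Medians of peptide generation and loading and of interferon-stimulated genes lie at -0.46 and -0.45 in MAPC minus ESC.

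Of 11 class II genes and regulators of these promoters measured, 2 were higher and 3 lower in MAPC than in ESC, with a median of -0.08, and the same numbers held against NS. That is 45.5%, beside 50.4% of all named genes against ESC and 55.1% against NS. Rfxap, a subunit of the RFX factor that binds class I and class II promoters, fell by 0.86 against ESC and 1.56 against NS. Nfyc, a subunit of the factor that binds the Y box, was 0.28 and 0.72 higher. H2-Ob was 0.89 higher in MAPC in both, and H2-DMa fell by 0.48 and 0.62. Ciita, the master regulator of class II genes, at 0.00 and 0.03, and H2-Eb1, at 0.05 and 0.14, did not pass in either comparison.

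Ligands and inhibitors of natural killer cells were few. Of 7 measured, 1 was higher and 5 were lower in MAPC than in ESC, and 3 were higher and 2 lower than in NS. The shares called were 85.7% and 71.4%, beside 50.4% and 55.1% of named genes. Cd47, which signals to phagocytes not to engulf, had log2 ratios of -2.90 and -2.71 in MAPC, -1.30 and -1.37 in ESC, and -0.22 and -0.28 in NS. MAPC was lowest without overlap, at differences of -1.47 from ESC and -2.55 from NS. Pvr, a ligand of activating receptors, was 1.01 and 1.19 higher in MAPC. Raet1d, a ligand of NKG2D, fell by 0.61 and 0.74, and Nectin2 was -0.16 against ESC, not past the test, and 1.11 higher than in NS.

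The labelled cell types were checked on marker lists. Of 13 embryonic stem cell markers, 12 were lower in MAPC than in ESC, and of 12 neural progenitor markers, 10 were lower in MAPC than in NS. The shares called were 92.3% and 83.3%, beside 50.4% and 55.1% of named genes. Dppa5a, the stem cell marker that did not pass, had Cy3 intensities of 5271 and 4244 in MAPC. In ESC they were 65155 and 65157, near the scanner's ceiling, so its log2 ratios do not show equal levels. Pou5f1, the gene of Oct4, had Cy3 intensities of 121 and 163 in MAPC, 1423 and 1282 in ESC, and 53.4 and 59.1 in NS. The leukocyte gene Ptprc, encoding CD45, was at 8.16 and 11.6 in MAPC, 13.0 and 15.3 in ESC, and 15.8 and 3.26 in NS. It lay under the brightest negative control on every array but ESC replicate 1, where that control reached 10.2. Ptprc was marked well above background on both ESC arrays and on 1 array each of MAPC and NS.

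Most fibroblast markers were higher in ESC than in MAPC and NS, as were Irf1 and H2-Q10. The other members differed in ESC minus NS, where B2m and Tap2 did not pass and H2-T23 was lower in ESC, at -0.53. Of 15 fibroblast markers measured, 0 were higher and 14 were lower in MAPC than in ESC, and 13 were higher and 1 lower in ESC than in NS. The share called was 93.3% in each, beside 50.4% and 51.1% of named genes. The summed ratio of the markers was 6.81 and 7.002 in MAPC, 24.3 and 20.3 in ESC, and 9.14 and 8.78 in NS. Postn, a matrix protein, had no MAPC spot marked well above background, and ESC was at least 80.7-fold higher. Col1a1 and Lox were 2.16 and 2.91 higher in ESC than in NS. ESC had been kept on fibroblasts, and the part of remaining fibroblast RNA in the ESC values was not tested. In these bulk samples fewer cells of a type and less RNA per cell cannot be told apart. The markers differed between MAPC and NS too, with 1 of 15 higher and 10 lower in MAPC and a median difference of -0.32. The share called there was 73.3%, beside 55.1% of named genes. Fbln2 fell by 3.28 and Dcn fell by 2.26 there, both matrix proteins, and NS was at least 5.78-fold higher for Postn.

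Of 13 leukocyte markers measured, 5 were lower and 0 higher in MAPC than in ESC, or 38.5% called beside 50.4% of named genes. Against NS 1 was lower, or 7.69% beside 55.1%. The summed ratio of 12 of them, those measured on all arrays, was 6.41 and 6.43 in MAPC, 8.45 and 8.73 in ESC, and 6.30 and 6.27 in NS. Lyz2, which encodes a lysozyme of macrophages, had Cy3 intensities of 78.1 and 122 in MAPC, 1308 and 1498 in ESC, and 109 and 126 in NS. Its part in the ESC values of the class I genes was not tested.

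The genes most like each main member were found by the root mean square distance of centred group means over 3 cell types, among 11944 named genes. B2m was nearest to Fsd1 at 0.024, Mmd at 0.029 and Sirt3 at 0.034. H2-Q10 was nearest to Tppp3 at 0.018, Gsdmd at 0.030 and Fbxo17 at 0.066. Irf1 was nearest to Smtnl2 at 0.029, Pdgfrb at 0.032 and Ulk1 at 0.050. Pdgfrb is one of the fibroblast markers and had mean log2 ratios of -2.39 in MAPC, -0.43 in ESC and -1.73 in NS. With 3 points per gene these are descriptions of pattern only.

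**Figure D5:**
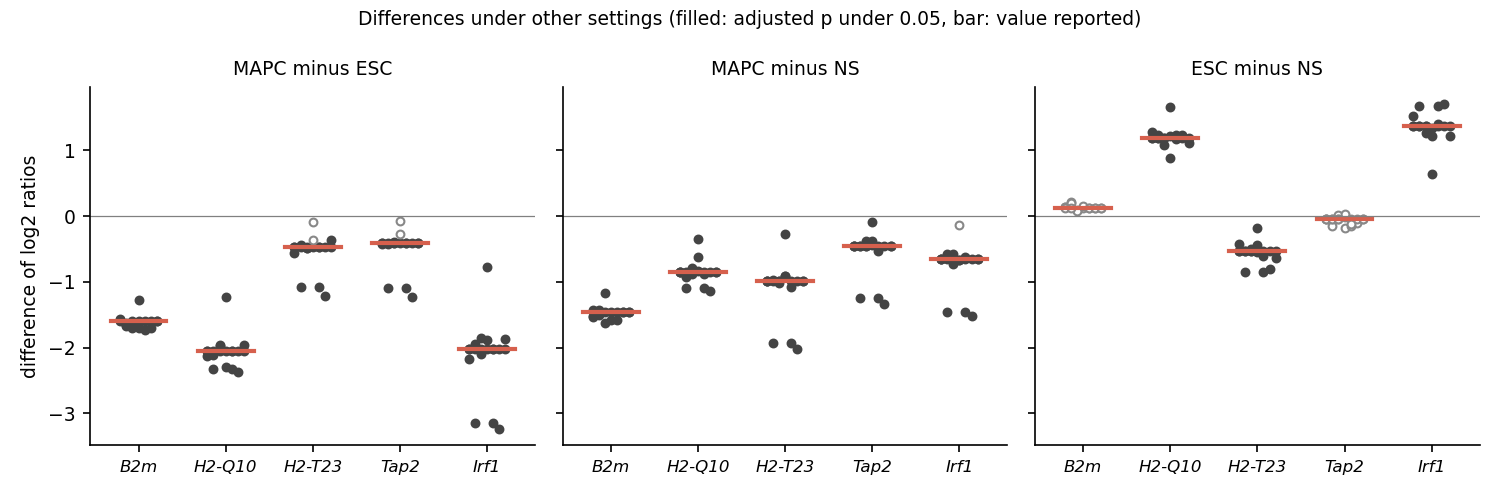
Differences of log2 ratios for the 5 genes under each other setting tried, filled where the adjusted p was under 0.05, with a bar at the value reported. MAPC minus ESC and MAPC minus NS stay below 0 in every setting that gave a value, and B2m ranges from -1.74 to -1.27 in MAPC minus ESC. Settings that change only the probes tested or the cell type not compared repeat the reported value.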

How the data were processed

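RNA of MAPC, ESC and NS was measured on 6 two-colour Agilent arrays. The deposited files give the mean intensity and median background intensity per spot and dye, and the file headers name Agilent Feature Extraction A.7.5.1. The deposited log10 ratio has Cy5 over Cy3, opposite to the log2 ratios here. The authors' series matrix holds log10 values made by an unstated rule. For 90.4% of the spots with no floor value, they equal the deposited ratio with its sign reversed plus a spot-specific constant (tolerance 0.005 on the log10 scale). Intensities were corrected with normexp (offset 50) and normalised by loess in limma 3.58.1 (R 4.3.3, package data.table, version 1.17.8). Outlier-marked spots and control spots did not enter. Probes well above background on both arrays of a cell type were tested in 1 limma fit of 6 arrays with 3 residual degrees of freedom (fewer where a spot was left out). On simulated data for MAPC minus ESC with 38999 probes the fit was tested before use.

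Probes were named through accessions (15294), symbols (15) or older symbols (72) in RefSeq's table, and 25625 stayed unnamed. For genes with several probes the brightest was used. Bounds ("at least") compare the bright group's mean with the lowest signal well above background on the dim arrays after Aquantile scaling, and are open to dye bias. The members and gene lists were chosen with earlier results of these data known. Each list's named genes were up to 4 with the largest difference past the threshold and up to 2 bright ones that did not pass, except those said to be chosen later. A gene that this rule names is not reported here. Each image-analysis day, a weekday from the file headers, holds 1 array of all 3 groups, with replicate 2 on day 1 and replicate 1 on day 2. Deviations of same-numbered arrays correlated at 0.094 (MAPC and ESC), 0.156 (MAPC and NS) and 0.207 (ESC and NS). With 2 arrays against 2 a permutation test cannot go below p = 0.333. The number of arrays limits the precision, and 2 MAPC arrays of 1 clone do not measure the spread between clones. Per-sample value columns left without a sample numbered 0.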

Additional observations from a re-analysis of the deposited data

How the results depend on the processing

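Every difference of the 5 genes was recomputed under 17 settings planned and 2 chosen after seeing the data, an offset of 0 and leaving out spots whose background was marked. In MAPC minus ESC and MAPC minus NS all values obtained stayed below 0. Settings that change only which probes are tested, or leave out arrays of the cell type not compared, cannot move a difference. They bear on the adjusted p alone. For MAPC minus ESC 3 of 5 member probes were called without background subtraction and 3 with the sample channel alone, against 5 in the fit reported. Tap2 and H2-T23 lost their calls in both. For MAPC minus NS, Irf1 was -0.14 without background subtraction (adjusted p = 0.111 by limma) against -0.65. The cause was not tested. Over settings, adjusted p for Irf1 in MAPC minus NS ran between 0.000239 and 0.111. In ESC minus NS, Tap2 changed sign in 2 of 19 settings and B2m and Tap2 were called in none. The replicate block, which is also the image-analysis day, called 15793 probes in MAPC minus ESC against 15161, and changed no call of the 5 genes. Each day holds the same number of arrays of every cell type. The block therefore cannot move a difference for a probe measured on all arrays, such as H2-Q10 at -2.05 and Irf1 at -2.02, only its spread. For B2m, with spots left out, it gave -1.62.

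Leaving out each array in turn gave ranges, for MAPC minus ESC, of -1.62 to -1.56 for B2m, -2.13 to -1.97 for H2-Q10 and -2.17 to -1.87 for Irf1. For MAPC minus NS they were -1.50 to -1.43, -0.92 to -0.79 and -0.72 to -0.57. For ESC minus NS H2-Q10 ran from 1.11 to 1.28 and Irf1 from 1.22 to 1.52. Without ESC replicate 1 or NS replicate 2, B2m had no unmarked spot in that cell type and no value, and with background-marked spots left out it had none in NS. Hence 4 member probes were called without ESC replicate 1 in MAPC minus ESC and without NS replicate 2 in MAPC minus NS.

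Of list genes that changed sign with a call in either value, Dppa5a in MAPC minus ESC was 0.09 as reported. It was -0.54 without background subtraction, -0.36 with median centring and -3.79 with the sample channel alone. Its Cy3 signal in ESC was near the scanner's ceiling. In the same comparison Thop1 was -0.087 without background subtraction and Esam -0.046 with the sample channel alone. With median centring Esrrb in MAPC minus NS was 0.0055 and Canx in ESC minus NS was 0.032. In ESC minus NS Adgre1 was -1.24 with outlier-marked spots kept and -1.43 with the series matrix values. Among list genes 5177 values were graded as unchanged, 192 lost a call and 58 gained one. Another 9 changed sign with a call in the reported or the recomputed value. Sign changes with a call in neither were graded as unchanged, as for Tap2 in ESC minus NS. Dim signals limit H2-T23, Tap2 and Irf1 in MAPC.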

Other observations

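The endothelial genes Tek and Flt1 were higher in MAPC than in both other cell types. Of 6 endothelial markers measured, 4 were higher and 1 lower in MAPC than in ESC, or 83.3% called beside 50.4% of named genes. Against NS 2 were higher and 1 lower, or 50% beside 55.1%. Tek, the receptor of angiopoietins, was 2.06 higher than in ESC and 2.68 higher than in NS (adjusted p = 4.26e-07 and 6.98e-08 by limma). Flt1, a receptor of vascular endothelial growth factor, was 1.55 and 2.21 higher (adjusted p = 1.61e-06 and 1.59e-07 by limma). Pecam1, an adhesion molecule of endothelium, fell by 0.76 against ESC, and at 0.01 did not pass against NS. The median log2 ratio of the list was -0.04 and -0.08 in MAPC, -0.20 and -0.21 in ESC, and 0.05 and -0.08 in NS, so MAPC and NS overlapped.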
